A study of Rattus norvegicus with 144 samples.

Results

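The genes described here are proteases of neutrophil granules and the inhibitors that hold such proteases in check, in rat blood after acetaminophen. All probes annotated to Serpinb1a, Slpi, Mmp8, Mmp9 or Elane were taken. Of these 5 genes, 4 had a probe on the array: Serpinb1a with 2 probes, and Slpi, Mmp8 and Mmp9 with 1 each. All 4 passed the filter on missing values, and they stand among 14678 features tested, of which 8354 are named genes. Elane has no annotated probe among the features and was not analysed here. The genes were chosen by the dose differences of these same animals from vehicle, so their own differences are given as a description. Where the text says that a member was past the threshold of the fit over all features, the share of all features past it stands beside it and nothing is read from the count. Statements on whether groups overlapped are descriptions too. The share of all features whose groups lay apart is not given, and nothing is read from them.

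Male F344/N rats aged 10-12 weeks were given acetaminophen by oral gavage at 0, 150, 1500 or 2000 mg/kg, in ethyl cellulose (0.5%) and split over 2 doses. Blood was taken 3, 6 or 24 h later, which gives 12 groups of 6 animals, and animals at 0 mg/kg received the vehicle only. RNA of each of the 72 animals was compared on 2 arrays, with the dyes exchanged, against a pool of equal amounts of RNA from 6 vehicle animals of the same time. The animals were blinded in the sample labels, and dose was read from the deposited key by animal number.

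Neutrophils carry serine proteases such as elastase in their primary granules, and matrix metalloproteinases in the granules they form later in maturation. Released proteases cut matrix, microbial proteins and host proteins, and antiproteases inside the cell and in the fluid around it limit the damage. Serpinb1a encodes an intracellular serpin that traps elastase, cathepsin G and proteinase 3. Slpi encodes a small secreted inhibitor with WAP domains that blocks elastase and cathepsin G. Mmp8 is the neutrophil collagenase, stored in specific granules, and Mmp9 is gelatinase B. Elane, the elastase gene itself, is transcribed mainly in bone marrow precursors and hardly in circulating neutrophils. In bulk blood RNA, fewer cells of a type and less RNA per cell cannot be told apart, nor can more cells and more RNA per cell.

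Start-site windows are shown for the inhibitor Serpinb1a and the collagenase Mmp8 because windows of the other members were not available. RefSeq windows of GRCr8 were matched for these 2 of the 5 genes, and the 250 bases before the start site that the window table uses are printed on the gene's strand. For Mmp8 this site lies 17 bases inside the gene as the RefSeq gene table bounds it, and for Serpinb1a the 2 tables share the start. Motif positions are counted back from the start site of the window table. Capitals mark matches on either strand to 3 motifs. One is the TATA box, searched as TATAAA. Another is the core bound by ETS factors such as PU.1, searched with its flanks as AGGAAG, and the last is a C/EBP motif, TTGCNNAA. The Serpinb1a window is chr17:31799196-31799445 and the Mmp8 window chr8:13008640-13008889, both on the plus strand.
Serpinb1a: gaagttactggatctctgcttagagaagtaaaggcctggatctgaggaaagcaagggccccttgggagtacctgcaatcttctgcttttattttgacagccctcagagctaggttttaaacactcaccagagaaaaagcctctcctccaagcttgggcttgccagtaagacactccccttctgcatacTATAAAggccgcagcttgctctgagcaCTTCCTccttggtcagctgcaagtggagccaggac
Mmp8: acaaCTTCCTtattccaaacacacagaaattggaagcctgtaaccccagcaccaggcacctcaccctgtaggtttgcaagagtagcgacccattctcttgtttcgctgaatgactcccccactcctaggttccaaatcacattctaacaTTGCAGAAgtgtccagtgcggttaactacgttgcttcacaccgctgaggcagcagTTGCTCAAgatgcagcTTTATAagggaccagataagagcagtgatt
The Serpinb1a window held TATAAA beginning at -62 and the ETS motif on the opposite strand at -35. The Mmp8 window held TTGCNNAA at -101 and at -46 and, on the opposite strand, the TATA box motif at -30 and the ETS motif at -246. No 2 of these matches overlapped. Over 33469 rat windows of the same length, 12.9% held the TATA box motif, 29.5% the ETS motif and 9.22% the C/EBP motif. The Serpinb1a window held no TTGCNNAA, which says only that these letters are not there.

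Values are log2 ratios of animal over pool, averaged over the 2 arrays of an animal. A log10 scale of Cy5 over Cy3 in the deposited table is likely from its number format and is not stated in the sources used here, so sizes and directions rest on that reading. Ratios at different times are against different pools. A feature is said to be past the threshold where its Benjamini-Hochberg adjusted p in a limma fit of the 12 group means was under 0.05. The deposited values carry no spot intensities, so whether a probe lay above background is not known here, and the number of arrays limits the precision.

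Serpinb1a had the highest single ratio of the 4 genes and the highest means at 1500 and 2000 mg/kg at 24 h. At 24 h the vehicle animals had a lowest, median and highest ratio of -0.58, -0.41 and 1.16. At 1500 mg/kg the corresponding ratios were 0.47, 2.19 and 4.59, and at 2000 mg/kg they were 0.73, 1.33 and 3.43. All 12 treated animals were above the vehicle mean, but the groups overlapped through vehicle animal 7067, whose ratio of 1.16 lay above 2 treated animals of each dose. The other 5 vehicle animals reached -0.29 at most, under every treated animal. Group means were -0.17 ± 0.66 (SD, n = 6) for vehicle, 2.45 ± 1.65 for 1500 mg/kg and 1.80 ± 1.12 for 2000 mg/kg. The difference from vehicle was 2.62 (SE 0.42) at 1500 mg/kg, or 6.14-fold with a 95% interval of 3.44 to 10.9. At 2000 mg/kg it was 1.97 (SE 0.42), or 3.91-fold with an interval of 2.19 to 6.97.

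Slpi, the secreted inhibitor, was higher in the same groups with a smaller size. At 24 h its lowest, median and highest ratios were -0.49, -0.27 and 0.80 in vehicle animals. They were 0.24, 1.42 and 2.33 at 1500 mg/kg and 0.65, 0.90 and 1.66 at 2000 mg/kg. Animal 7067 was again the highest vehicle animal, and 4 of 6 animals at 1500 mg/kg and 5 of 6 at 2000 mg/kg exceeded it. The other 5 vehicle animals reached -0.06 at most and did not overlap with either dose. The difference from vehicle was 1.48 (SE 0.24) at 1500 mg/kg, or 2.80-fold (95% interval 1.99 to 3.92). It was 1.16 (SE 0.24) at 2000 mg/kg, or 2.23-fold (interval 1.59 to 3.13).

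Mmp8, the collagenase, was the only protease among the measured members with high ratios at 24 h. Vehicle animals had a lowest, median and highest ratio of -0.87, -0.10 and 0.31. The 1500 mg/kg animals had 0.37, 1.77 and 3.37, and at 2000 mg/kg 0.16, 1.38 and 3.06. The lowest 1500 mg/kg animal, 3046 with 0.37, lay only just above the highest vehicle animal, 7067 with 0.31. On the Cy3 arrays alone 3046 had 0.30 and vehicle animal 5480 had 0.93, so the groups overlapped there. At 2000 mg/kg 5 of 6 animals were above every vehicle animal. Animal 2342 at 2000 mg/kg, with 0.16, lay within the vehicle range. The difference from vehicle was 1.91 (SE 0.36) at 1500 mg/kg, or 3.75-fold (95% interval 2.28 to 6.17). It was 1.64 (SE 0.36) at 2000 mg/kg, or 3.11-fold (interval 1.89 to 5.12).

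Mmp9, the gelatinase, had ratios near 0 throughout. Over all 72 animals its ratios ran from -0.16 to 0.38. At 24 h the lowest, median and highest were -0.08, 0.10 and 0.13 in vehicle animals, -0.10, 0.05 and 0.27 at 1500 mg/kg and -0.16, 0.07 and 0.30 at 2000 mg/kg. All 4 groups at 24 h overlapped. The difference from vehicle was 0.01 at both doses, with 95% intervals of -0.12 to 0.14, or 0.918- to 1.10-fold at 2000 mg/kg. The spread within groups was small too: its SD of 0.112 was below that of most features, and 19.0% of the features tested had a smaller one. The median over all features was 0.204.

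**Figure D1:**
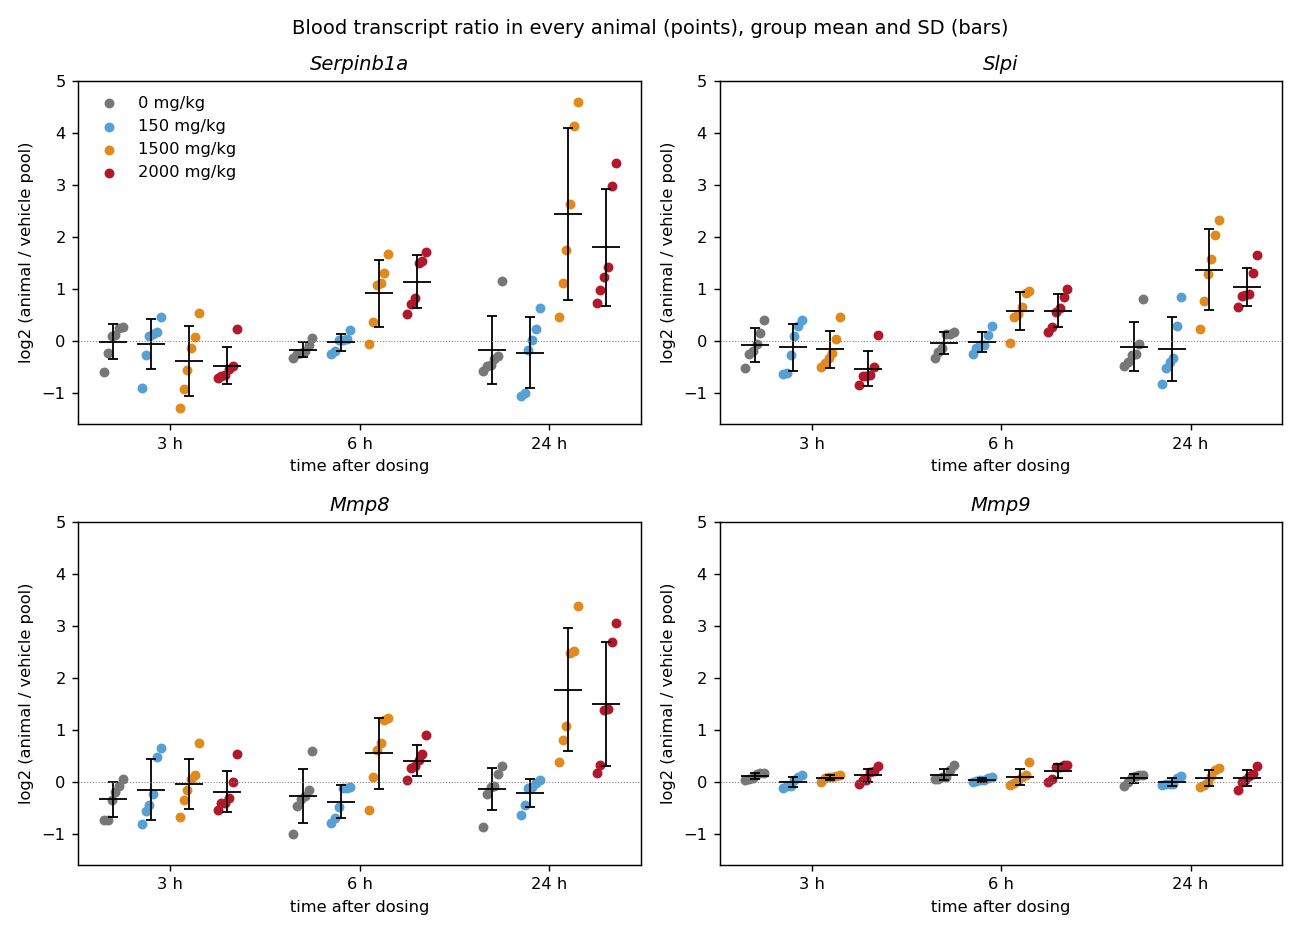
Log2 ratio of animal over vehicle pool (vertical axis) for Serpinb1a, Slpi, Mmp8 and Mmp9 by time after dosing (horizontal axis) and dose (colour). Points are animals, 6 per group, and bars give the group mean and SD. Serpinb1a, Slpi and Mmp8 are spread upward at 24 h for 1500 and 2000 mg/kg, up to 4.59, 2.33 and 3.37, while Mmp9 stays between -0.16 and 0.38.

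At 24 h, 3 of the 4 genes were past the threshold at 1500 mg/kg, where 0.845% of all features were past it with a higher ratio. The same 3 genes were past it at 2000 mg/kg, where the share of all features was 0.491%. These comparisons chose the genes, so the counts are no test of them. The spread behind them was estimated over all 12 groups, and Serpinb1a and Mmp8 varied more at 24 h than their vehicle groups. The SD of Serpinb1a at 1500 mg/kg was 2.52 times that of the vehicle group and the SD of Mmp8 2.90 times, against a median of 0.975 times over all features, and the SD of Slpi was 1.67 times that of vehicle at 1500 mg/kg and 0.783 times at 2000 mg/kg. With the spread taken only from the 4 groups at 24 h, or only from the 2 groups compared, none of the 3 genes was past the threshold at either dose. Without animal 1987, the difference of Mmp8 at 2000 mg/kg was 1.33 and was no longer past the threshold. Without vehicle animal 7067 the differences of Serpinb1a were 2.88 and 2.23. Nearly all arrays at 24 h lacked 500 features that others hold (12 of 12 at 0 and 1500 mg/kg and 11 of 12 at 2000 mg/kg). Without the animal that had an array of the other design, the differences at 2000 mg/kg were 1.73 for Serpinb1a, 1.19 for Slpi and 1.40 for Mmp8, and those of Serpinb1a and Mmp8 were no longer past the threshold.

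At 6 h most animals at the upper doses had inhibitor ratios above those of every vehicle animal. Serpinb1a ran from -0.32 through a median of -0.20 to 0.06 in vehicle animals, from -0.06 through 1.10 to 1.67 at 1500 mg/kg and from 0.51 through 1.17 to 1.72 at 2000 mg/kg. All 6 animals at 2000 mg/kg and 5 of 6 at 1500 mg/kg were above every vehicle animal. The differences from vehicle were 1.08 (SE 0.42) and 1.30 (SE 0.42), or 2.11-fold and 2.47-fold. Slpi ran from -0.34 through -0.003 to 0.176 in vehicle animals, from -0.04 through 0.59 to 0.96 at 1500 mg/kg and from 0.177 through 0.59 to 1.004 at 2000 mg/kg. Its 2000 mg/kg group lay just above the vehicle group, and 5 of 6 animals at 1500 mg/kg did. The differences were both 0.62 (SE 0.24), or 1.54-fold.

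Mmp8 at 6 h overlapped between vehicle and treated animals. Its vehicle animals ran from -1.02 through -0.30 to 0.59, those at 1500 mg/kg from -0.54 through 0.67 to 1.22 and those at 2000 mg/kg from 0.02 through 0.36 to 0.90. The differences were 0.82 (95% interval 0.10 to 1.54) and 0.68 (interval -0.04 to 1.40). Only 1 animal at 2000 mg/kg was above every vehicle animal, and 4 were at 1500 mg/kg. Mmp9 differed from vehicle by -0.05 and 0.07 with overlapping groups. Of the 4 genes only Serpinb1a at 2000 mg/kg was past the threshold, beside 0.961% of all features with a higher ratio, and at 1500 mg/kg 0 were, beside 0.0954%, with 3 of the 4 at an unadjusted p under 0.05 in limma, as were 14.6% of all features. The dose differences at 6 h are among those that chose the genes, so these counts are no test of them. With single animals left out, Serpinb1a at 2000 mg/kg was no longer past it in 7 of 12 cases, with differences of 1.19 to 1.43 over all 12. Arrays lacking the 500 features were 10 of 12 in the vehicle group, 4 of 12 at 1500 mg/kg and 10 of 12 at 2000 mg/kg. Among animals of that design alone, 5 in each group, the difference of Serpinb1a at 2000 mg/kg was 1.45 and no longer past the threshold, and those of Slpi and Mmp8 were 0.66. At 1500 mg/kg that design held 2 treated and 5 vehicle animals, with differences of 1.03 for Serpinb1a, 0.63 for Slpi and 0.31 for Mmp8. With the array design as a covariate over all animals, the difference of Mmp8 at 1500 mg/kg was 0.56.

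At 3 h no member was past the threshold at any dose in limma, nor was any at an unadjusted p under 0.05, but Slpi at 2000 mg/kg was past the threshold with array weights or against the pool. The medians of both inhibitors were lower at 2000 mg/kg. Serpinb1a ran from -0.60 through 0.11 to 0.26 in vehicle animals and from -0.71 through -0.60 to 0.23 at 2000 mg/kg. Slpi ran from -0.52 through -0.13 to 0.41 in vehicle animals and from -0.84 through -0.67 to 0.12 at 2000 mg/kg. The groups overlapped for both genes, and 4 of 6 animals were below every vehicle animal for Slpi against 3 of 6 for Serpinb1a. The differences were both -0.46, with 95% intervals of -1.29 to 0.37 for Serpinb1a and -0.95 to 0.03 for Slpi. Mmp8 differed by 0.15 (interval -0.57 to 0.86) and Mmp9 by 0.01 (interval -0.12 to 0.14). At 1500 mg/kg the differences were -0.37 for Serpinb1a, -0.09 for Slpi, 0.30 for Mmp8 and -0.03 for Mmp9, all with intervals that hold 0. Of all features, 8.32% at 2000 mg/kg and 1.24% at 1500 mg/kg were past the threshold with a lower ratio.

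The low dose of 150 mg/kg moved no member past the threshold at any time, beside 0% of all features. By limma, 616, 693 and 399 of the 14678 features had an unadjusted p under 0.05 at 3, 6 and 24 h, and no member was among them. Differences of the 4 genes from vehicle ran from -0.12 for Mmp9 to 0.19 for Mmp8, both at 3 h. At 24 h they were -0.06 for Serpinb1a, -0.05 for Slpi, -0.08 for Mmp8 and -0.06 for Mmp9. The interval for Serpinb1a, -0.89 to 0.77, is wide beside these values. At that time 150 mg/kg animals ran from -1.05 through -0.08 to 0.63 for Serpinb1a and from -0.83 through -0.37 to 0.85 for Slpi, overlapping the vehicle animals.

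**Figure D2:**
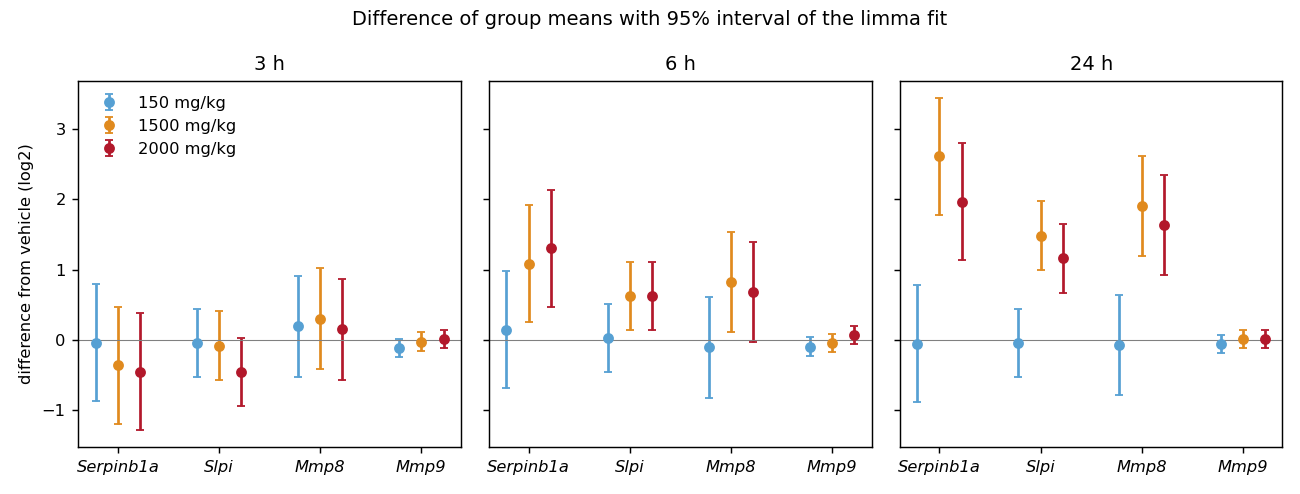
Difference of each dose group from the vehicle group of the same time (vertical axis, log2) for the 4 genes (horizontal axis) at 3, 6 and 24 h, with the 95% interval of the limma fit as bars and dose as colour. Serpinb1a reaches 2.62 at 24 h and 1500 mg/kg, while the Mmp9 intervals lie around 0 in all 3 panels.

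In the order of the 12 group means, 1500 and then 2000 mg/kg at 24 h led for Serpinb1a, Slpi and Mmp8, and the 4 places at the top were held by both upper doses at 24 and 6 h. For Serpinb1a the gap below these 4 groups, 0.93, was larger than either SD, and each other gap between neighbours was within the larger SD of the pair. For Slpi 3 gaps exceeded both SDs: 0.46 between 24 h and 6 h at the upper doses, 0.60 below the 4 groups at the top and 0.38 above the lowest group, 2000 mg/kg at 3 h. For Mmp8 and Mmp9 every gap between neighbours was within the larger SD. The vehicle groups themselves were not at 0 for Mmp8, with means of -0.34, -0.28 and -0.14 at 3, 6 and 24 h.

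For the inhibitors the difference of the treated animals from vehicle was larger at 24 h than at 3 h. For Serpinb1a the 24 h difference exceeded the 3 h difference by 2.43 (SE 0.59) at 2000 mg/kg and by 2.99 (SE 0.59) at 1500 mg/kg. For Slpi it did so by 1.62 (SE 0.35) and 1.57 (SE 0.35). Both genes were past the threshold at both doses, beside 2.73% of all features at 2000 mg/kg and 1.51% at 1500 mg/kg, and since these changes are built from the differences that chose the genes, the calls are no test of them. Mmp8 changed by 1.49 (95% interval 0.48 to 2.51) and 1.61 (interval 0.60 to 2.63) and was past it at neither dose, and Mmp9 changed by -0.0002 and 0.04. No member was past the threshold between 3 and 6 h, beside 0.00681% of all features at 2000 mg/kg and 0% at 1500 mg/kg, or between 6 and 24 h, beside 3.67% and 0.225%. Between 3 and 6 h in limma, 626 features at 2000 mg/kg and 565 at 1500 mg/kg had an unadjusted p under 0.05, Serpinb1a and Slpi among them at both doses. From 6 to 24 h these were 2538 and 1452 features. Serpinb1a, Slpi and Mmp8 were among them at 1500 mg/kg, and no member was at 2000 mg/kg.

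Between the 2 upper doses every 95% interval of the 4 genes held 0 at each time. At 24 h, 2000 less 1500 mg/kg was -0.65 (95% interval -1.49 to 0.18) for Serpinb1a, -0.33 (interval -0.81 to 0.16) for Slpi and -0.27 (interval -0.99 to 0.45) for Mmp8. For Mmp9 it was -0.003, with an interval of -0.13 to 0.13. At 6 h the same difference was 0.22 for Serpinb1a and 0.004 for Slpi. No feature at all passed between these doses, 0% at 3, 6 and 24 h in limma, where 549, 677 and 506 features had an unadjusted p under 0.05. The intervals for Serpinb1a still allow the mean at 2000 mg/kg to be anything from 0.357 to 1.14 times that at 1500 mg/kg.

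At 24 h the animals of a dose differed widely, and the same animals led for Serpinb1a and Mmp8. At 1500 mg/kg animal 0861 had ratios of 4.59 for Serpinb1a and 3.37 for Mmp8, animal 8385 had 4.14 and 2.51, and animal 6173 had 2.64 and 2.48. Animal 3046 of the same dose had 0.47 and 0.37 and was the lowest for Slpi too, with 0.24. At 2000 mg/kg animals 1987 and 5402 had 3.43 and 2.98 for Serpinb1a and 3.06 and 2.68 for Mmp8, while the other 4 animals had at most 1.43 and 1.39. Slpi followed with an exception: animal 1987 was the highest, with 1.66, but 5402 was next to the lowest, with 0.86. Animal 7067 was the highest of the vehicle animals at 24 h for each of the 4 genes. Mmp9 was also highest in 0861 and 8385 at 1500 mg/kg, but on a small scale of 0.27 and 0.22.

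Over all 72 animals, which share the pools of their time, Serpinb1a correlated with Slpi at a Pearson r of 0.92 and with Mmp8 at 0.88, and Slpi with Mmp8 at 0.82. Within groups, after each group's mean was taken off, the values were 0.80, 0.77 and 0.61. Mmp9 correlated with these 3 genes at 0.15 to 0.31, and at 0.18 to 0.46 within groups. The coefficients are descriptions, and those over all animals hold the dose differences that chose the genes.

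**Figure D3:**
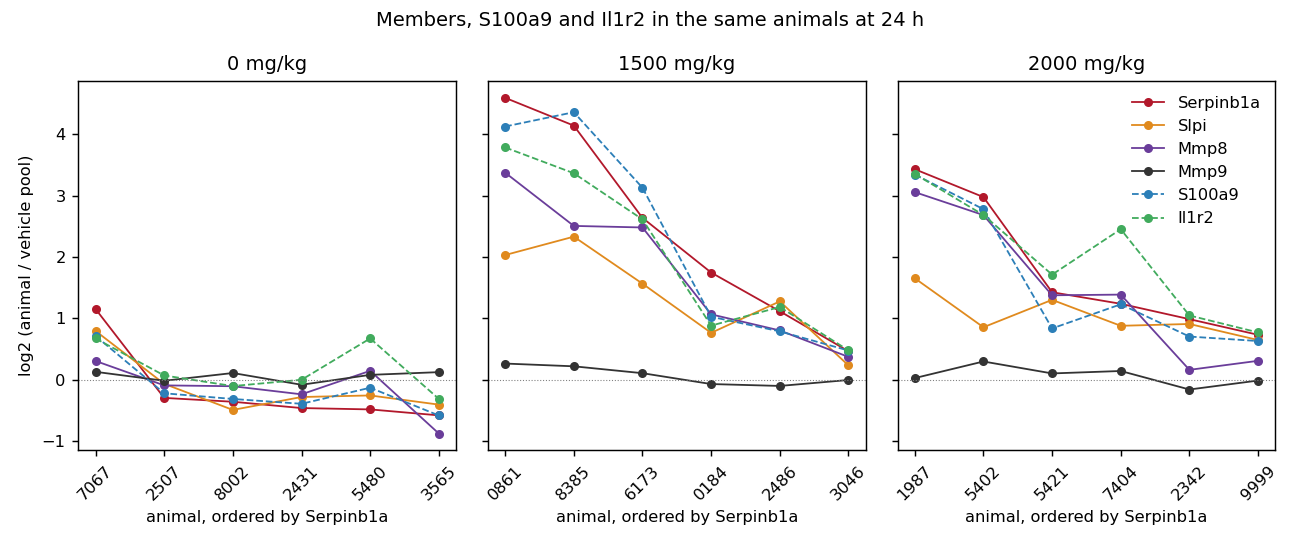
Log2 ratio of animal over pool (vertical axis) in each animal at 24 h (horizontal axis, ordered by Serpinb1a) for the 4 genes (solid lines) and the neutrophil genes S100a9 and Il1r2 (dashed lines), in panels of 0, 1500 and 2000 mg/kg. Animals 0861, 8385, 1987 and 5402 are high for Serpinb1a, Mmp8, S100a9 and Il1r2 together, and Mmp9 stays near 0.

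The pair of arrays of each animal, which hold the same RNA with the dyes exchanged, gives a check on single values. For Slpi, the distance of each turned array from the mean of its pair had an SD of 0.0541 over the 72 animals, against an SD of 0.43 between animals of a group, and the arrays correlated at 0.99. For Serpinb1a these were 0.244, 0.737 and 0.91. Mmp8 repeated less well, with an SD of 0.366 between arrays against 0.634 between animals and a correlation of 0.72. Mmp9 had 0.0447 against 0.112 and a correlation of 0.76, so part of its narrow range repeated between dyes. All 12 animals at 1500 or 2000 mg/kg and 24 h were above 0 on both arrays for Serpinb1a, Slpi and Mmp8, and 5 of 12 were for Mmp9. An offset that followed the dye was present as well. On average the Cy5 array lay below the mean of the pair by 0.28 for Serpinb1a and 0.08 for Slpi. It lay above that mean by 0.16 for Mmp8 and 0.09 for Mmp9. These offsets cancel in the mean, and the SDs between arrays given here leave them out.

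**Figure D4:**
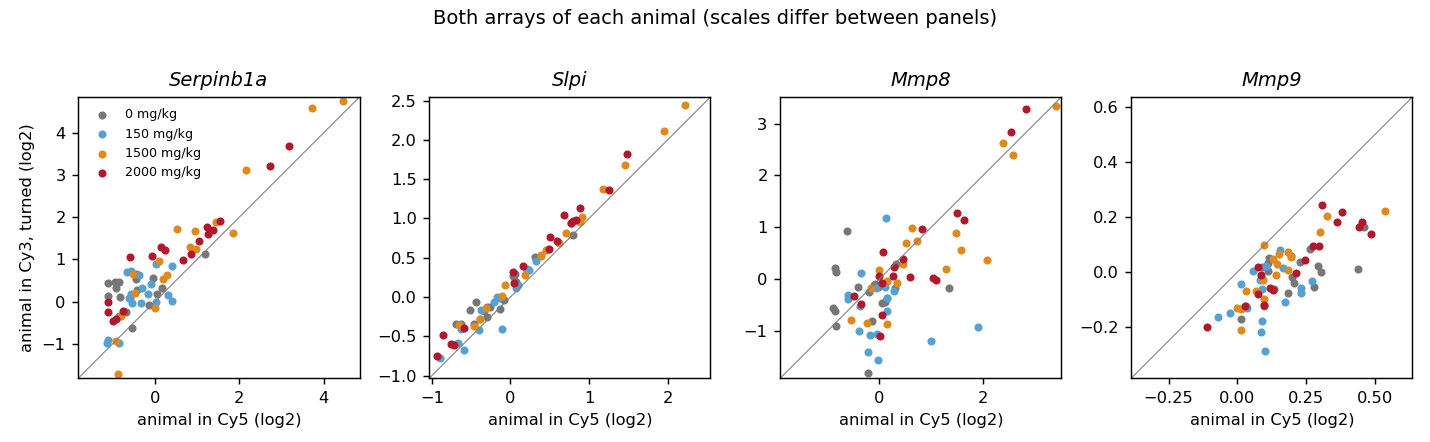
Ratio on the array with the animal in Cy5 (horizontal axis, log2) against the turned ratio on the array with the animal in Cy3 (vertical axis, log2), 1 point per animal, coloured by dose, with the line of equality. Slpi pairs lie close to a line (correlation 0.99), while Mmp8 pairs scatter at low ratios and meet at high ones (correlation 0.72).

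The 2 probes of Serpinb1a gave the same order of groups at 24 h. Probe 3658 had means of -0.21, 2.61 and 1.99 at 0, 1500 and 2000 mg/kg, and probe 9458 of -0.12, 2.29 and 1.60. Over 71 animals they correlated at 0.96. Both were annotated to the same transcript, so they repeat the measurement of that transcript.

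Other proteases and inhibitors on the array mostly lay near 0 at 24 h. Of 15 other serpins, the family of Serpinb1a, 0 were past the threshold in limma at either upper dose (1 and 0 at an unadjusted p under 0.05), with a median difference of -0.03 at 1500 mg/kg beside -0.01 over all features. Of 15 other inhibitors, which include cystatins, WAP proteins and TIMPs, only Cstb, the cysteine protease inhibitor cystatin B, rose at 1500 mg/kg, by 0.66 (SE 0.15, limma adjusted p = 0.00715), and 0 did at 2000 mg/kg (1 at an unadjusted p under 0.05). The median of these inhibitors was -0.04 at 1500 mg/kg. Of 7 other matrix metalloproteinases tested, 0 passed at either dose in limma (2 and 0 at an unadjusted p under 0.05), with medians of 0.09 and 0.08. At 1500 mg/kg these other family members ran from -0.07 for Mmp13 to 0.45 for Mmp17, beside 1.91 for Mmp8. Mmp8 was chosen by its differences in these animals and the others were not, so nothing is read from its place. Of 10 other surface and extracellular proteases, Anpep, an aminopeptidase of myeloid cells, rose by 0.81 (SE 0.22, adjusted p = 0.0347 in limma) at 1500 mg/kg only. At each dose 2 of the 10 had an unadjusted p under 0.05 in limma. Of all features, 0.845% at 1500 mg/kg and 0.491% at 2000 mg/kg were past the threshold with a higher ratio. Nothing is therefore read from counts of 0 or 1 in lists of this size. The shares of all features at an unadjusted p under 0.05 in limma were 9.18% and 9.95%. No gene of these 4 lists was past the threshold with a lower ratio at 24 h, beside 0.368% of all features at 1500 mg/kg and 0.327% at 2000 mg/kg. Furin, a protease of the same list as Anpep, had medians of -0.61 and -0.54 beside -0.21 in vehicle animals. Its change between 3 and 24 h at 1500 mg/kg, -0.72, was past the threshold (limma adjusted p = 0.0278), as was that of Anpep, 1.27, beside 1.51% of all features.

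The serine proteases of neutrophil primary granules were not covered: Prtn3 and Ctsg, the genes of proteinase 3 and cathepsin G, were not tested, nor was Elane. Of 12 listed genes of granule serine proteases and their activator 5 were tested, and these were Ctsc, the lymphocyte granzyme Gzmm and the mast cell proteases Tpsab1, Tpsb2 and Cma1. Ctsc, the cathepsin that activates the granule serine proteases, fell at 3 h and 2000 mg/kg by 0.90 (SE 0.27, limma adjusted p = 0.0214). Of all features 8.32% fell there. At 24 h Ctsc differed by 0.85 and 0.90 at 1500 and 2000 mg/kg and was not past the threshold. Its change between 3 and 24 h at 2000 mg/kg, 1.80, was (limma adjusted p = 0.00149). The mast cell proteases Tpsb2 and Cma1 differed by -0.007 and -0.04 at 24 h and 1500 mg/kg. Tpsab1, a mast cell tryptase, fell by 0.17 at 6 h and 2000 mg/kg (adjusted p = 0.00811, limma), beside 8.26% of all features.

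Other granule proteins rose with Mmp8 in part. At 24 h and 1500 mg/kg 3 of 10 tested rose, beside 0.845% of all features. These were Pglyrp1, a bactericidal protein of specific granules, by 1.03 (SE 0.19, limma adjusted p = 0.000464), Srgn, the granule proteoglycan serglycin, by 0.70, and Cd63, a granule membrane protein, by 0.51. At 2000 mg/kg Pglyrp1 and Cd63 rose, by 0.72 and 0.38, beside 0.491% of all features. The median of the 10 was 0.10 beside -0.002 over all features. Lcn2, another specific granule gene, differed by 0.03 and -0.10, and its ratios ran from -0.35 to 0.66 over all animals. At 3 h and 2000 mg/kg 3 of the 10 fell, beside 8.32% of all features, while Mmp8 differed by 0.15. These were Fcnb, a ficolin, by 1.71 on the log2 scale, Lyz2, lysozyme, by 1.69 and Srgn by 0.62. Lyz2 is also counted among the monocyte markers below. Fcnb fell at 6 h and 2000 mg/kg as well, by 1.34, where 8.26% of all features were past the threshold with a lower ratio. It fell by 1.60 at 3 h and 1500 mg/kg, beside 1.24% of all features. At 6 h and that dose 0 of the 10 passed in limma (1 at an unadjusted p under 0.05), where 0.654% of all features fell.

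**Figure D5:**
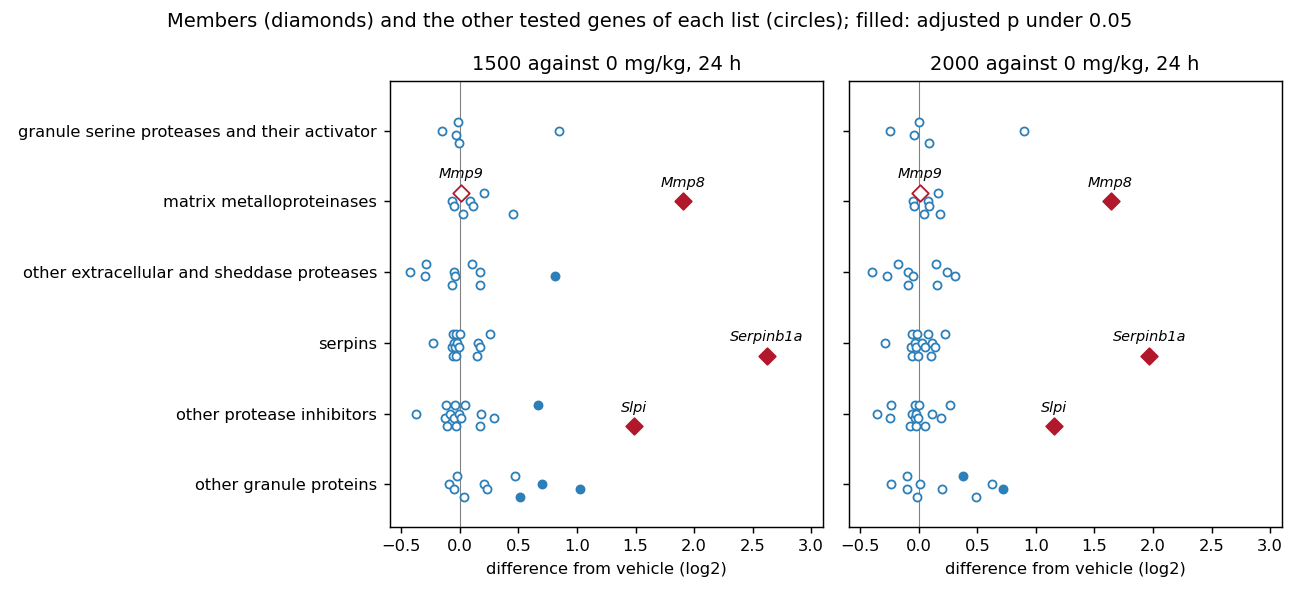
Difference from vehicle at 24 h (horizontal axis, log2) for each tested gene of 6 lists of proteases, inhibitors and granule proteins (vertical axis), at 1500 mg/kg on the left and 2000 mg/kg on the right. Diamonds are the 4 members, circles the other genes, and filled symbols are past the threshold. Serpinb1a, Slpi and Mmp8 lie to the right of the other genes of their lists, and Mmp9 lies at 0.01. The members were chosen by dose differences of these animals, so their place is no test of them.

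Few proteases or inhibitors passed at the earlier times. At 3 h and 2000 mg/kg Mmp23, Mmp11 and A2m rose by 0.38, 0.32 and 0.20, beside 0.913% of all features. Anpep and Cstb fell there by 0.67 and 0.61, beside 8.32% of all features. Cstb and Anpep therefore stood below vehicle at 3 h and 2000 mg/kg and above it at 24 h and 1500 mg/kg. At 6 h and 2000 mg/kg Mmp23 rose by 0.35, beside 0.961% of all features, and Adam15, a sheddase, fell by 0.44, beside 8.26%. The vehicle animals were low for Mmp23 at that time, with a median of -0.29. Its median at 150 mg/kg, 0.15, was as high as that at 2000 mg/kg, 0.11. At 1500 mg/kg 0 genes of the 5 lists of proteases and inhibitors passed at 3 or 6 h in limma, with at most 3 of a list at an unadjusted p under 0.05. Of all features, 0.0545% rose and 1.24% fell at 3 h, and 0.0954% rose and 0.654% fell at 6 h. Of 10 tested regulators of granulocyte genes, Runx1 fell at 3 h at both upper doses, by 0.88 and 1.25, and at 6 h and 2000 mg/kg by 0.95. The shares of all features that fell there were 1.24%, 8.32% and 8.26%. Cebpd, a C/EBP factor, rose at 24 h and 1500 mg/kg by 1.08 (limma adjusted p = 0.0412), beside 0.845% of all features. The genes Spi1 and Cebpb were not among the features tested.

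Part of the neutrophil markers rose with the members at 24 h, in a list chosen with earlier results of these data known. The median difference of the markers was 0.28 at 1500 mg/kg and 0.14 at 2000 mg/kg, beside -0.008 and -0.002 over all features. Of 15 tested markers 6 rose at 1500 mg/kg, beside 0.845% of all features, and 0 fell, led by S100a9 with 2.47 (SE 0.42, limma adjusted p = 0.000199), S100a8 with 1.99, Il1r2, a decoy receptor for interleukin 1, with 1.88, and Anxa1, annexin A1, with 1.67. At 2000 mg/kg 5 rose, beside 0.491% of all features, led by Il1r2 with 1.84, S100a9 with 1.74, Anxa1 with 1.30 and C5ar1, the C5a receptor, with 1.10. The defining marker Cxcr2 differed by -0.02 and -0.07, and Csf3r was not tested. The mean over the 15 markers ran from -0.21 to 0.43 in vehicle animals, from 0.06 to 1.26 at 1500 mg/kg and from 0.25 to 1.01 at 2000 mg/kg, and it was highest in 0861, 8385 and 1987, with 7067 highest in the vehicle group. Cxcr2, Ncf1 and Cybb, all neutrophil genes, had narrow ranges over the 72 animals like that of Mmp9, the widest running from -0.23 to 0.29 for Cybb. At 3 h and 2000 mg/kg 5 of the 15 markers fell, beside 8.32% of all features, among them C5ar1 by 1.99 and Ncf4 by 1.07, and 0 rose. At 6 h and 2000 mg/kg Il1r2 rose by 2.0, beside 0.961% of all features. In that group 2 genes of the list fell, Fcgr3a by 0.76 and Cyba by 0.56, beside 8.26% of all features. At 6 h and 1500 mg/kg Il1r2 rose by 1.84, beside 0.0954% of all features.

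At 24 h and the upper doses, mean ratios of lymphocyte markers were lowest in the 4 animals with the highest Serpinb1a. The mean over 12 T cell markers ran from -0.32 to 0.22 in vehicle animals at 24 h, from -1.09 to 0.23 at 1500 mg/kg and from -0.93 to 0.28 at 2000 mg/kg. Its lowest values, -1.09, -0.97, -0.93 and -0.76, belonged to 8385, 0861, 5402 and 1987, the 4 animals with the highest Serpinb1a. Over 8 B cell markers the same 4 animals had means of -0.82, -1.04, -0.90 and -0.91, against -0.21 to 0.31 in vehicle animals. Animal 6173, next in Serpinb1a with 2.64, had T cell and B cell means of -0.24 and -0.13. Vehicle animal 7067 went the other way. It was the highest of its group for Serpinb1a and also for the T cell and B cell means, with 0.22 and 0.31. At 24 h 0 of the 12 T cell and 0 of the 8 B cell markers were past the threshold in limma at either dose. Of all features 0.368% at 1500 mg/kg and 0.327% at 2000 mg/kg were past it with a lower ratio. An unadjusted p under 0.05 in limma was found for 6 and 2 of the T cell markers at these doses, beside 9.18% and 9.95% of all features. Of 13 monocyte markers 3 rose at 1500 mg/kg, beside 0.845% of all features: Fcgr1a by 0.95, Lgals3 by 0.61 and Tyrobp by 0.45. At 2000 mg/kg 2 rose, beside 0.491% of all features. Of 6 platelet and 11 erythroid markers 0 passed at 24 h in limma, with 1 and 3 at an unadjusted p under 0.05 at 1500 mg/kg and 1 and 5 at 2000 mg/kg. The shares of all features given above stand beside these counts too. The mean over the erythroid markers ran from -0.03 to 0.15 in vehicle animals and from -0.29 to -0.03 at 2000 mg/kg. The lowest means over the platelet markers, -0.64, -0.54 and -0.46, belonged to 5402, 8385 and 0861, against -0.14 to 0.19 in vehicle animals. The part of these markers in the ratios of Serpinb1a, Slpi and Mmp8 was not tested.

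At 3 and 6 h part of the lymphocyte and monocyte markers fell, mostly at 2000 mg/kg. At that dose 6 of 12 T cell, 4 of 8 B cell and 7 of 13 monocyte markers fell at 3 h, beside 8.32% of all features. In the same group 1 monocyte marker, Ms4a7, rose by 0.34, beside 0.913% of all features with a higher ratio. At 6 h 6, 5 and 4 fell, beside 8.26%. At 1500 mg/kg the numbers that fell were 0, 3 and 2 at 3 h, beside 1.24% of all features, and 0, 1 and 0 at 6 h, beside 0.654%. Of the T cell markers, 8 at 3 h and 5 at 6 h had an unadjusted p under 0.05 in limma at 1500 mg/kg. The shares of all features there were 13.2% and 14.6%. The mean over the T cell markers at 6 h ran from -0.15 to 0.09 in vehicle animals and from -0.79 to -0.37 at 2000 mg/kg, the group in which Serpinb1a was above every vehicle animal. At 3 h it ran from -0.98 to -0.44 at 2000 mg/kg, where Serpinb1a was not past the threshold. The part of this shift in the ratios of the members was not tested.

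Over the 72 animals the named genes most like the members differed between Mmp9 and the others. For Serpinb1a they were Dgat2, a triglyceride synthesis enzyme, at a Pearson r of 0.95, Slpi at 0.92 and S100a9 at 0.92. For Slpi they were Dgat2 at 0.93, Tlr2 at 0.93 and Serpinb1a at 0.92, and for Mmp8 they were Pglyrp1 at 0.90, Dgat2 at 0.90 and Serpinb1a at 0.88. Dgat2 was thus among the 3 most alike genes of each of these members. Within groups Dgat2 kept values of 0.89, 0.83 and 0.80. For Mmp9 they were Cyp2c6v1, a liver cytochrome P450, at 0.96, Cox6a2, a cytochrome oxidase subunit of heart and muscle, at 0.95 and Dffb, an apoptotic nuclease, at 0.93. Ratios of these 3 genes lay between -0.20 and 0.58, the widest range being that of Cox6a2, and within groups the correlations were 0.95, 0.94 and 0.93.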

How the data were processed

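Blood RNA of 72 rats was measured on 144 2-colour arrays. The deposited values are read as log10 ratios (Cy5 over Cy3, after dye normalisation by the authors). This reading rests on the number format: no source used here states their scale, centring or direction. Time and dye came from the labels and dose from the deposited key, in which 19 animal numbers had lost zeros and were matched on the remaining unique digits. Of 22075 features, 500 were absent on 91 arrays and left out; arrays lacking or holding them are called array designs. Array medians lay between -0.00754 and 0.00873. Exact zeros (10.92%) were treated as missing. Ratios were put on a log2 scale with the animal over the pool, and the 2 arrays of an animal were averaged. Probes with 1 symbol (12750) were averaged per gene, while 5 with several and 8820 with none stayed single. Features with a value in at least 4 of 6 animals of each group were fitted, 12 group means in 1 fit, with limma 3.58.1 in R 4.3.3 (two-sided, Benjamini-Hochberg over all features, threshold 0.05). The script was tested on simulated data. Random-block fits used statmod 1.5.0. Tables and intervals were made in Python 3.11.15 with pandas 2.3.3, numpy 2.4.6 and scipy 1.17.1.

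The members and gene lists were chosen with earlier results of these data known. List genes named are at most 4 per list and comparison by size, and for each member the 3 named genes with the highest correlation over at least 60 animals. Genes not past the threshold that the text names (Ctsc and Furin at 24 h, Lcn2, Tpsb2, Cma1, Gzmm, Mmp13, Mmp17, Ncf1 and Cybb) were chosen after their values were seen. Alternatives changed the treatment of zeros, centring, scaling, dye, array design, weights, filter, groups in the fit, arrays, control, probes and single animals.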

Additional observations from a re-analysis of the deposited data

Results flagged for a closer look

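Of 48 groups of 6 ratios of the members, 4 had an animal whose distance to the nearest of the others was large for its group, where chance gives about 5%. Vehicle animal 7067 at 24 h had a Serpinb1a ratio of 1.16 against -0.58 to -0.29 in the other 5, and a Slpi ratio of 0.80 against -0.49 to -0.06. Animal 4010 at 3 h and 2000 mg/kg had a Serpinb1a ratio of 0.23 against -0.71 to -0.49 in the others and a Slpi ratio of 0.12 against -0.84 to -0.49. Each pair is 1 animal and not 2 separate events.

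Both inhibitors were past the threshold in the limma contrast of differences between 3 and 24 h. Beside them stood 2.73% of all features at 2000 mg/kg and 1.51% at 1500 mg/kg. Serpinb1a changed by 2.43 at 2000 mg/kg and 2.99 at 1500 mg/kg, and Slpi by 1.62 and 1.57. Mmp8 changed by 1.49 and 1.61, sizes near those of Slpi, and was not past the threshold. The genes were chosen on differences that enter these contrasts, so the contrasts are no test of them.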

How the results depend on the processing

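Every member difference past the threshold kept its direction under all alternatives run, and its size ranged as follows when single animals were left out. Serpinb1a ranged from 1.19 to 1.43 at 6 h and 2000 mg/kg, from 2.19 to 3.02 at 24 h and 1500 mg/kg and from 1.64 to 2.23 at 24 h and 2000 mg/kg. Slpi ranged from 1.29 to 1.71 and from 1.04 to 1.34 at 24 h and those doses, and Mmp8 from 1.59 to 2.19 and from 1.33 to 1.90. The number of members past the threshold ranged from 0 to 1 at 6 h and 2000 mg/kg, stayed at 3 at 24 h and 1500 mg/kg, and ranged from 2 to 3 at 24 h and 2000 mg/kg. At 24 h, with the spread from only the 4 groups of that time or only the 2 groups compared, the count was 0 at both doses with the differences as before: 2.62, 1.48 and 1.91 for Serpinb1a, Slpi and Mmp8 at 1500 mg/kg and 1.97, 1.16 and 1.64 at 2000 mg/kg. With animals of 1 array design (5 against 6 animals), 1 member was past it at 24 h and 2000 mg/kg, and Serpinb1a at 1.73 and Mmp8 at 1.40 were not. Mmp8 there was not past it at 1.47 on the Cy3 arrays or at 1.37 with array weights. At 6 h and 2000 mg/kg Serpinb1a was not past it with scaled arrays (1.18), on the Cy3 arrays (1.16), in 1 array design (1.45) or with probe 3658 alone (1.20), and in each of the settings other than the single probe the count was 0. It was 2 with array weights, with only the groups of that time, with only the 2 groups and with single arrays, and 3 against the pool. At 6 h and 1500 mg/kg, where 0 members were past it, Serpinb1a and Slpi were with array weights (1.33 and 0.74), with only the groups of that time (1.08 and 0.62), against the pool (0.91 and 0.58) and with single arrays (1.06 and 0.62), and Mmp8 was with array weights (1.14). At 3 h and 2000 mg/kg Slpi was with array weights (-0.58) and against the pool (-0.54). Mmp9 was against the pool at 2000 mg/kg, at 3 h (0.12) and 6 h (0.20). The causes were not tested. No paired analysis was possible because animal numbers are not shared between groups. Missing spot intensities leave the floor of each probe unknown.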
